A study of Mus musculus with 12 samples.

Results

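NRF2, a transcription factor encoded by Nfe2l2, its inhibitor gene Keap1 and 6 genes known as NRF2 targets (Nqo1, Hmox1, Txnrd1, Srxn1, Osgin1 and G6pdx) were examined in mouse myotubes exposed to a mitochondrial uncoupler. These 8 genes were taken by their symbols from the 15113 genes of the count table, all were found, and all were among the 12730 that passed the filter on low counts and were tested. The cells were C2C12, mouse myoblasts of an established line, which form multinucleated myotubes once serum is withdrawn, here from 10% fetal bovine serum to 2% horse serum. BAM15 is a protonophore, which carries protons across the inner mitochondrial membrane so that respiration runs without ATP synthesis. One group of 6 libraries came from myotubes treated for 16 h with 20 μM BAM15 dissolved in DMSO, and the other group of 6 from myotubes given the vehicle DMSO for the same time. All libraries came from this 1 cell line, with no genetic change described, and no label says that they came from separate cultures, so p-values measure the spread between these libraries, which may be technical. Libraries were made with QuantSeq, a method that primes cDNA at the poly(A) tail and counts each transcript by reads near its 3′ end, so long and short transcripts of equal number give like counts.

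NRF2 is made continuously, and KEAP1 holds it for ubiquitination by a CUL3 ligase so that it is degraded quickly. Oxidants and electrophiles modify cysteines of KEAP1, which lets NRF2 accumulate, pair with a small MAF protein and bind antioxidant response elements in its target genes. Most of this control acts on the NRF2 protein, which was not measured here, and many NRF2 targets also answer to other factors such as AP-1, BACH1, HSF1 or ATF4.

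The 6 target genes and Nfe2l2 all had higher normalized counts after BAM15, and Keap1 did not pass the test. Hmox1 rose the most, 4.14-fold, followed by Srxn1 at 2.97-fold, Nqo1 at 2.28-fold and Osgin1 at 2.04-fold. G6pdx at 1.61-fold, Nfe2l2 at 1.53-fold and Txnrd1 at 1.48-fold rose by less than 2-fold. A change was called by either of 2 rules. The first followed the study's methods and asked for more than 2-fold, for an adjusted p-value under 0.01 and for a base mean, the average normalized count of all libraries, over 50. The other used only the adjusted p-value. By the first rule 4 of the 8 genes were higher and 0 were lower, against 3.70% of the 12730 tested genes that were higher and 3.58% that were lower (7.28% in either direction). By the adjusted p-value alone, 7 of 8 were higher and 0 lower, against 22.0% and 20.3% of tested genes (42.3% in either direction). In these 7 genes every BAM15 library lay above every vehicle library, a separation found for 17.1% of tested genes, with 17.0% separated the other way (34.2% in all). The median log2 fold change of the 8 genes was 0.86, and that of all tested genes was 0.02. The 8 genes were chosen with earlier results of these data known, so shares set beside those of all tested genes are descriptions only. Tests are edgeR quasi-likelihood tests, adjusted by the Benjamini-Hochberg method over all tested genes.

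**Figure D1:**
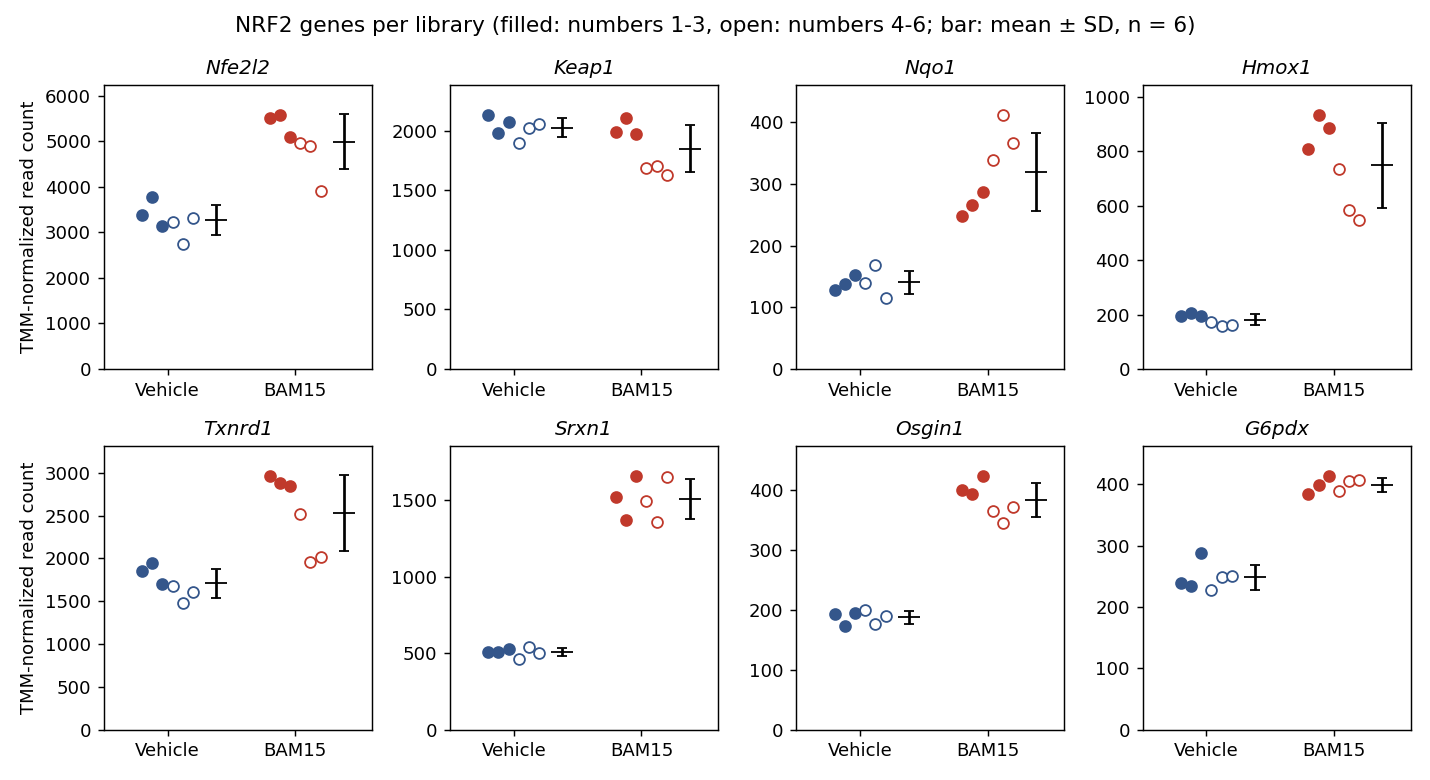
TMM-normalized read count (y axis, from 0) of each of the 8 genes in the 6 vehicle and 6 BAM15 libraries, with filled points for library numbers 1 to 3, open points for numbers 4 to 6 and a bar for the mean ± SD. The groups overlap only for Keap1, and within the BAM15 group Hmox1 and Txnrd1 are lower and Nqo1 higher in the open points than in the filled ones.

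Total counts ranged from 13983725 to 18866728 per library. All 15 myotube markers were detected, with a summed level of 22149 to 27944 CPM (counts scaled to a common library total) after BAM15 and 24609 to 27620 with vehicle. The 6 markers of proliferating myoblasts were summed to 124 to 172 CPM after BAM15 and 318 to 367 with vehicle, so the groups did not overlap. Of 5 macrophage markers, Ptprc and Adgre1 were not listed in the table, and the other 3 were summed to 4.60 to 8.67 CPM after BAM15 and 1.70 to 2.92 with vehicle. None of 5 adipocyte markers and 2 of 5 endothelial markers were listed, the latter at no more than 0.742 CPM in either group. The part of these cells in the results was not tested, and in such bulk samples fewer cells of a type cannot be told apart from less RNA per cell.

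Motifs were searched only in windows from 250 bases before to 50 bases after the gene start, taken from RefSeq on GRCm38.p6. Such windows were at hand for 7 of the 8 genes, 9 windows in all since Txnrd1 has 3 starts, and Hmox1 had no entry. On both strands, the core of the antioxidant response element, TGACNNNGC, was found for Nfe2l2, Txnrd1, Srxn1 and G6pdx. Over all genes it was found in 12.4% of the 32851 windows and for 14% of the 27025 genes. The AP-1 core TGANTCA was found for Srxn1 and Osgin1, and in 7.81% of all windows (8.97% of genes). The longer element TGANTCAGC, bound by NRF2 with a small MAF protein and containing the AP-1 core, was found for Srxn1 and Osgin1. It was found in 1.19% of all windows (1.37% of genes). This longer element was added after the other motifs had been searched, so its shares are descriptions only. The C/EBP-ATF element TGATGNAA was found in no window of these genes and in 3.97% of all windows (4.51% of genes). The windows of Keap1 and Nqo1 held none of the 4 motifs, but elements outside these short windows were not searched for any gene. A match is a run of letters, and binding was not measured. Of the RefSeq starts whose stretches are printed below, those of Osgin1 and G6pdx and the middle start of Txnrd1 lie well within the gene as annotated by GENCODE, downstream of its first base. The following stretches end before the gene start and carry the matches in capitals, each read 5′ to 3′ on the strand of its gene. They show the Srxn1 promoter (chr2:152105274-152105523, plus strand), with 1 AP-1 core alone and 1 inside the longer element, the Osgin1 promoter (chr8:119436997-119437146, plus strand), with the longer element on the opposite strand, and parts of the promoters of G6pdx (chrX:74428881-74428980, minus strand), Nfe2l2 (chr2:75704814-75704913, minus strand) and the middle start of Txnrd1 (chr10:82859056-82859155, plus strand), each with 1 antioxidant response element core.
Srxn1: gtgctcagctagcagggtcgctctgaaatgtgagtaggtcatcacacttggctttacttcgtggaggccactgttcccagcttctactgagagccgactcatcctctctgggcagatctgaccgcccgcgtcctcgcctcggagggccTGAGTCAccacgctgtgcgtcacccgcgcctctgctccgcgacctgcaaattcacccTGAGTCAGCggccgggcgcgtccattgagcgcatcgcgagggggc
Osgin1: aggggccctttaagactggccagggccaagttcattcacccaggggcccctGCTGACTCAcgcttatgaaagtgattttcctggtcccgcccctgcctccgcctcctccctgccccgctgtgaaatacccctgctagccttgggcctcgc
G6pdx: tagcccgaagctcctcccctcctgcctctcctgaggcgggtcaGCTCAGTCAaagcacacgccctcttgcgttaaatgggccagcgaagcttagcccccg
Nfe2l2: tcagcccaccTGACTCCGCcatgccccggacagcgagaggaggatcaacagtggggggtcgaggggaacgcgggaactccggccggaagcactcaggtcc
Txnrd1: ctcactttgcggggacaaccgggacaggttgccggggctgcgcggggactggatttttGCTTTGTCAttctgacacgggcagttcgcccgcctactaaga

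**Figure D2:**
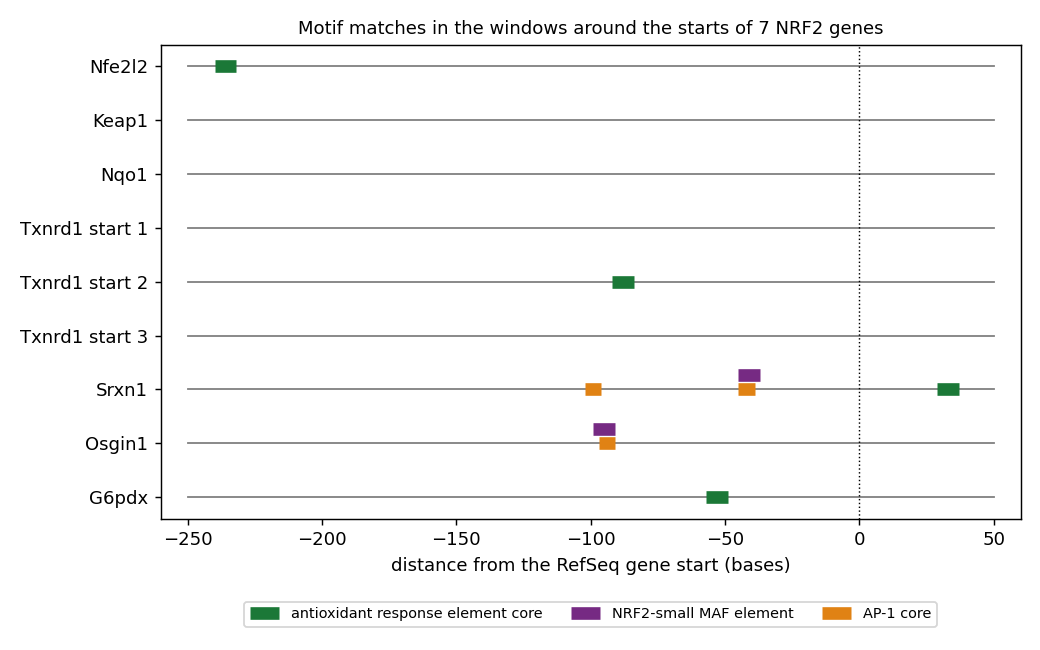
Positions of motif matches (x axis, bases from the RefSeq gene start at the dotted line) in the 9 windows around the starts of 7 of the genes, 1 window per row. Srxn1 has the most matches, 2 AP-1 cores before the start, the longer element over the nearer of these at −45 to −37, and an antioxidant response element core after the start at 29 to 37, and the windows of Keap1 and Nqo1 have none.

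Nfe2l2 (ENSMUSG00000015839, chromosome 2, 75675513 to 75704641 on GRCm38) encodes NRF2 itself. Its normalized counts ran from 3907 to 5569 with a median of 5031 in the BAM15 libraries, and from 2753 to 3767 with a median of 3273 with vehicle. The lowest BAM15 library, number 6, was only just above the highest vehicle library. Mean counts were 4991 ± 601 after BAM15 and 3263 ± 330 with vehicle (SD, n = 6 each), a fold change of 1.53 with a 95% interval of 1.34 to 1.74 (log2 0.61, standard error 0.09, adjusted p = 3.04e-05, edgeR). Keap1 (ENSMUSG00000003308, chromosome 9, 21229730 to 21239361) encodes the sensor that holds NRF2 for degradation. Keap1 counts ran from 1629 to 2103 with a median of 1836 after BAM15 and from 1891 to 2127 with a median of 2037 with vehicle. The groups overlapped, and the fold change was 0.912 with an interval of 0.825 to 1.01 (log2 −0.13, standard error 0.07, adjusted p = 0.115, edgeR). The interval does not reach a fall of 2-fold or a rise of 2-fold. When libraries were scaled by their size alone, the log2 fold change of Keap1 was −0.20 and its adjusted p-value 0.00622, past the p-value threshold.

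Hmox1 (ENSMUSG00000005413, chromosome 8, 75093621 to 75100589) encodes heme oxygenase-1, which opens heme into biliverdin, iron and carbon monoxide. Its counts ran from 547 to 932 with a median of 771 after BAM15 and from 157 to 205 with a median of 183 with vehicle. The lowest BAM15 library was well above the highest vehicle library. Mean counts were 749 ± 157 against 181 ± 20.6 (SD, n = 6 each), a fold change of 4.14 with an interval of 3.39 to 5.05 (log2 2.05, standard error 0.13, adjusted p = 6.62e-09, edgeR). Nqo1 (ENSMUSG00000003849, chromosome 8, 107388225 to 107403206) encodes NAD(P)H quinone dehydrogenase 1, which reduces quinones by 2 electrons and is a widely used readout of NRF2. Nqo1 had counts from 249 to 411 with a median of 313 after BAM15 and from 116 to 168 with a median of 139 with vehicle. The groups were separate, and the mean counts of 319.6 ± 63.2 and 140.2 ± 18.3 gave a fold change of 2.28 with an interval of 1.88 to 2.77 (log2 1.19, standard error 0.13, adjusted p = 2.03e-06, edgeR). The interval includes 2-fold.

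Srxn1 and Txnrd1 belong to the thiol systems that remove peroxides. Srxn1 (ENSMUSG00000032802, chromosome 2, 152105516 to 152111376) encodes sulfiredoxin, which repairs overoxidized peroxiredoxins. Srxn1 counts ran from 1354 to 1657 with a median of 1508 after BAM15 and from 464 to 537 with a median of 507 with vehicle. The libraries of each group lay close together, with a coefficient of variation of 8.68% after BAM15 and 4.91% with vehicle. The fold change was 2.97 with an interval of 2.70 to 3.28, so the whole interval lay above 2-fold (log2 1.57, standard error 0.07, adjusted p = 4.16e-11, edgeR). Txnrd1 (ENSMUSG00000020250, chromosome 10, 82833951 to 82897712) encodes cytosolic thioredoxin reductase, a selenoenzyme that keeps thioredoxin reduced with NADPH. Its counts ran from 1960.3 to 2961 with a median of 2683 after BAM15 and from 1481 to 1952 with a median of 1689.8 with vehicle. The lowest BAM15 library and the highest vehicle library were nearly level. The fold change was 1.48 with an interval of 1.26 to 1.74 (log2 0.56, standard error 0.11, adjusted p = 4.41e-04, edgeR), and the interval did not reach 2-fold.

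Osgin1 (ENSMUSG00000074063, chromosome 8, 119434124 to 119446256) encodes oxidative stress induced growth inhibitor 1. Its counts ran from 345 to 423 with a median of 382 after BAM15 and from 173 to 200.3 with a median of 191 with vehicle. The groups were well separated, and the fold change of 2.04 had an interval of 1.83 to 2.26 (log2 1.03, standard error 0.07, adjusted p = 1.29e-08, edgeR). This value lies at the 2-fold threshold. It fell under 2-fold in 5 alternatives, among them without BAM15 library 3 (log2 0.997) and without vehicle library 2 (log2 0.9998), while its adjusted p-value was at most 1.89e-05 in every alternative run. G6pdx (ENSMUSG00000031400, chromosome X, 74409483 to 74429194) encodes glucose-6-phosphate dehydrogenase, which makes NADPH at the entry of the pentose phosphate pathway. For G6pdx, counts ran from 384 to 414 with a median of 402 after BAM15 and from 228 to 288 with a median of 244 with vehicle. The BAM15 libraries were the most even of the 8 genes, with a coefficient of variation of 2.84%. The fold change was 1.61 with an interval of 1.46 to 1.78 (log2 0.69, standard error 0.07, adjusted p = 6.11e-07, edgeR). Among all runs of 50 bases within the 3′-most 400 bases of its transcript, 7.12% also occur in G6pd2, a related gene, so reads from these runs could be counted for either gene, whereas the 3′ ends of the other 7 genes shared no such run with another gene. Exons of other genes overlapped none of these last 400 bases.

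**Figure D3:**
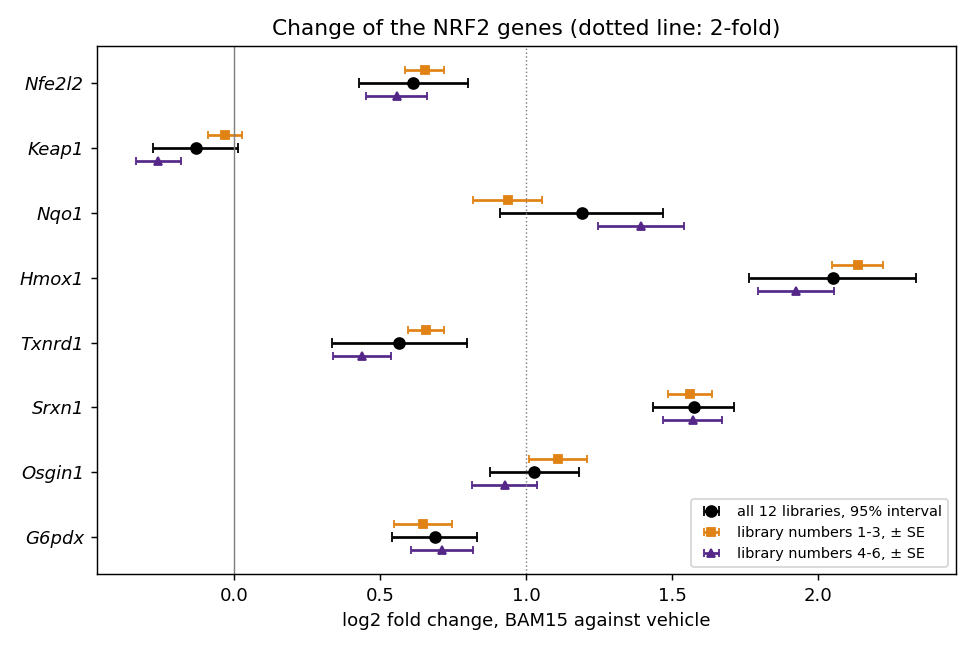
Log2 fold change of BAM15 against vehicle (x axis) for the 8 genes, with black circles and 95% intervals for all 12 libraries, orange squares for library numbers 1 to 3 and purple triangles for numbers 4 to 6, both with standard errors. Hmox1 and Srxn1 lie with their whole intervals above the 2-fold line, Nqo1 and Osgin1 on it, and Keap1 at −0.13 with an interval that crosses 0.

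The BAM15 libraries numbered 4 to 6 stood apart from those numbered 1 to 3, although no label names a batch. With the 2 sets of numbers fitted as separate groups within each condition, 38.8% of tested genes differed between these BAM15 libraries at an adjusted p-value below 0.05. Among the 8 genes, 4 differed, 3 of them lower and 1 higher in numbers 4 to 6. Hmox1 averaged 875 in numbers 1 to 3 and 622 in numbers 4 to 6 (log2 difference −0.49, standard error 0.10, adjusted p = 0.00119), and Txnrd1 averaged 2893 and 2168 (log2 difference −0.42, adjusted p = 0.00139, edgeR). Keap1 averaged 2021 and 1672 (log2 difference −0.27, adjusted p = 0.00261, edgeR). Nqo1 went the other way, with 267 in numbers 1 to 3 and 372 in numbers 4 to 6 (log2 difference 0.48, standard error 0.12, adjusted p = 0.00592, edgeR). The BAM15 libraries of the 2 sets of numbers did not overlap in 6 of the 8 genes, these 4 with Nfe2l2 and Osgin1, of which 5 were lower and 1 higher in numbers 4 to 6. Over all tested genes the sets were separate in 49.9%, with 27.7% lower and 22.2% higher in numbers 4 to 6. Nfe2l2 averaged 5394 and 4589 (adjusted p = 0.0615) and did not pass. Srxn1 at 1517 and 1499.9, and G6pdx at 399 and 401, were nearly level. Between the vehicle libraries with these numbers, 0 of the 8 genes and 0 of all tested genes passed edgeR's test, with an unadjusted p-value below 0.05 for 2 of the 8 and for 695 of all. Hmox1 and Txnrd1 were also lower in vehicle numbers 4 to 6, without passing. Their log2 differences there were −0.29 (standard error 0.12) and −0.21 (standard error 0.09), while Keap1 had −0.05 and Nqo1 0.02.

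Compared with vehicle within each set of numbers, the 6 targets and Nfe2l2 were higher after BAM15 in both sets at an adjusted p-value below 0.01. Of all genes tested within a set, 22.2% were higher by this rule in numbers 1 to 3 and 16.5% in numbers 4 to 6. The log2 fold change of Nqo1 was 0.94 in numbers 1 to 3, under 2-fold, and 1.39 in numbers 4 to 6. Hmox1 had 2.13 and 1.92, Txnrd1 0.66 and 0.44, Osgin1 1.11 and 0.93, and Srxn1 1.56 and 1.57. Keap1 had −0.03 in numbers 1 to 3 (adjusted p = 0.667) and −0.26 in numbers 4 to 6 (adjusted p = 0.0141, edgeR). Tested as an interaction, the BAM15 effect differed between the 2 sets in 0 of the 8 genes by edgeR and 0 by DESeq2. The rule was an adjusted p-value below 0.05, which 2.66% of tested genes passed by edgeR. By sign, 2.14% had a higher and 0.518% a lower log2 fold change in numbers 4 to 6. Keap1 and Nqo1 had an unadjusted p-value below 0.05 in both tests. The share of all tested genes under that rule was not counted. Nqo1 had the largest difference of the 8 genes, 0.46 on the log2 scale (standard error 0.19, adjusted p = 0.135, edgeR). Without BAM15 library 4, the interaction of Txnrd1 passed (log2 difference −0.33, adjusted p = 0.0231, edgeR).

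Lists of other pathway genes were written from general knowledge, but with earlier results of these data known, so their shares are descriptions only. These 7 lists hold 87 genes in all, of which 78 were tested. By the adjusted p-value alone, 38.5% of these (30 genes) were higher after BAM15 and 17.9% (14 genes) were lower, beside 22.0% and 20.3% of all tested genes. The 30 include Gsta3 and Slc7a11, whose calls add no support to that count, as described below. The median log2 fold change of the 78 tested genes was 0.24. Among the 19 tested regulators and partners of NRF2, 8 were higher and 4 lower, with a median of 0.41. Sesn2, which encodes sestrin 2, a protein that promotes the degradation of KEAP1, rose from 89.3 ± 13.0 to 746 ± 160.1 normalized counts (SD, n = 6 each, log2 fold change 3.06, adjusted p = 2.67e-10). Sqstm1, which encodes p62, an autophagy receptor that takes KEAP1 away from NRF2 and is itself an NRF2 target, rose from 8073 ± 301 to 23711 ± 2403 (log2 fold change 1.55, adjusted p = 7.29e-11). All 3 genes of the small MAF proteins that pair with NRF2 rose, Mafk by 1.00 on the log2 scale (adjusted p = 1.72e-08), Maff by 1.00 (adjusted p = 5.28e-06) and Mafg by 0.92 (adjusted p = 2.14e-08, edgeR). Nfe2l1, which encodes the related factor NRF1, rose as well (log2 fold change 0.82, adjusted p = 3.16e-07). Bach1, whose product competes with NRF2 at the Hmox1 gene, had 540.4 ± 113 counts after BAM15 and 600.1 ± 79.7 with vehicle and did not pass (log2 fold change −0.15, adjusted p = 0.348, edgeR).

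**Figure D4:**
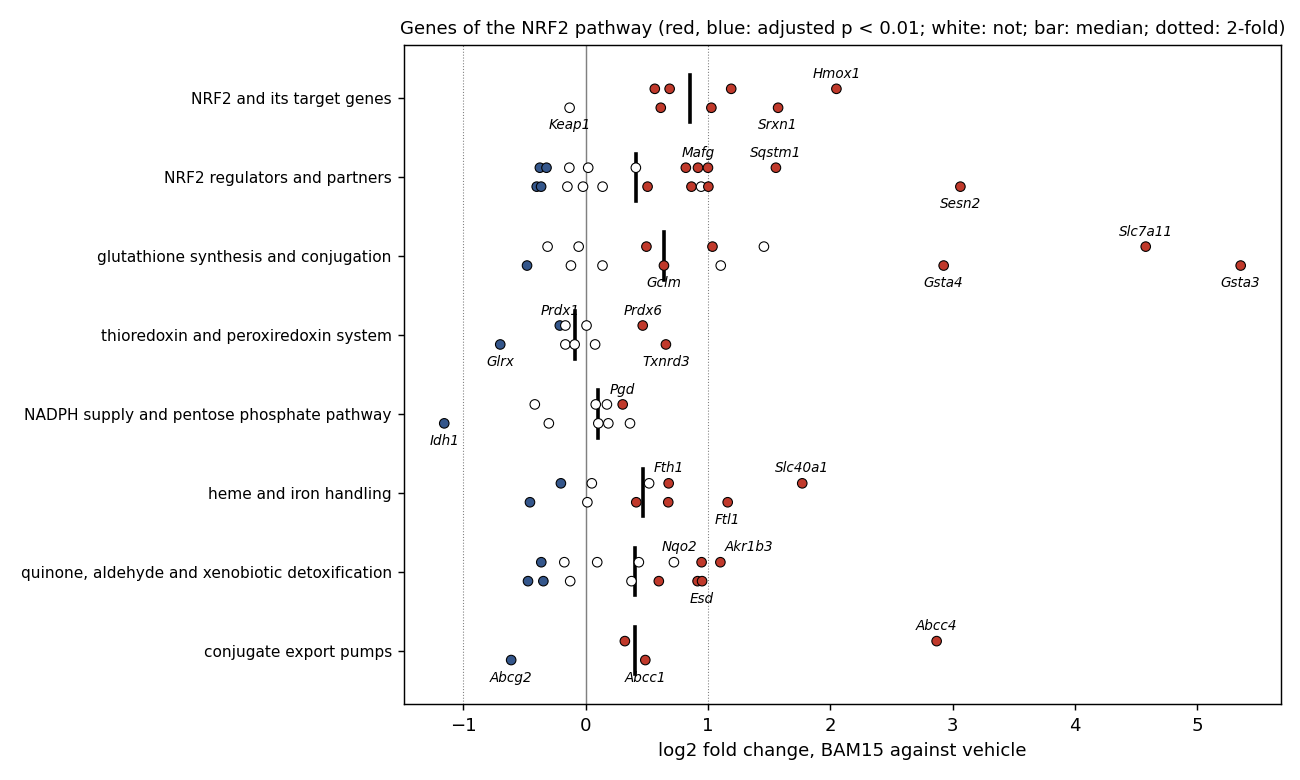
Log2 fold change of BAM15 against vehicle (x axis) for each tested gene of the 8 NRF2 genes and of 7 other lists, 1 list per row, in red or blue where the adjusted p-value was below 0.01, with a bar at the median of each list. Values spread from −1.16 (Idh1) to a fitted 5.35 (Gsta3, nearly uncounted with vehicle), and the medians of the thioredoxin and the NADPH lists lie near 0.

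Of 13 tested genes of glutathione synthesis and conjugation, 6 were higher and 1 lower, with a median of 0.64. These shares were 46.2% and 7.69%, beside 22.0% and 20.3% of all tested genes. Slc7a11, which encodes the cystine importer that feeds glutathione synthesis and is known as a target of both NRF2 and ATF4, had 221 to 349 normalized counts in the BAM15 libraries against 8.13 to 16.2 in the others, a log2 fold change of 4.58 (adjusted p = 2.03e-11). The glutathione transferase gene Gsta4 rose from 230.3 ± 17.7 to 1752 ± 151 (SD, n = 6 each, log2 fold change 2.93, adjusted p = 2.26e-13, edgeR). Gsta3, another such gene and among the 6, was close to absent with vehicle, with 7 reads over the 6 libraries. It had 303 reads over the 6 BAM15 libraries, a ratio of 45.1. The counting interval of 21.6 to 113 leaves out the spread between libraries. Gsta3 passed the filter on low counts only through its BAM15 libraries, so its call adds no support to the count of higher genes. Slc7a11 was also low with vehicle and was left out when 10 counts were asked of every library. The call of Slc7a11 therefore adds no support to that count either. Both subunit genes of glutamate-cysteine ligase, which catalyzes the first step of glutathione synthesis, rose by less than 2-fold, Gclm by 0.64 on the log2 scale (adjusted p = 5.35e-04) and Gclc by 0.50 (adjusted p = 0.00184, edgeR). Gclc did not pass within library numbers 1 to 3 (log2 fold change 0.35, adjusted p = 0.0473). Gsr, which encodes glutathione reductase, had 34.0 to 47.0 counts in BAM15 numbers 1 to 3 and 106 to 184 in numbers 4 to 6, on either side of most vehicle libraries (58.8 to 110.4), and did not pass over all libraries (adjusted p = 0.790). Within library numbers 1 to 3 it fell (log2 fold change −0.91, adjusted p = 7.91e-04), and within numbers 4 to 6 it had 0.64 (adjusted p = 0.0600).

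In the thioredoxin and peroxiredoxin list, 2 of 9 genes were higher and 2 lower, 22.2% each way and so near the shares of all tested genes, with a median of −0.09. The thioredoxin reductase gene Txnrd3 rose (log2 fold change 0.66, adjusted p = 2.66e-05), as did the peroxiredoxin gene Prdx6 (0.47, adjusted p = 1.70e-05), whereas the glutaredoxin gene Glrx fell (−0.70, adjusted p = 8.57e-05) and Prdx1 fell (−0.21, adjusted p = 0.00301, edgeR). Prdx1 did not pass within library numbers 1 to 3 (adjusted p = 0.0253). Txn1, which encodes the thioredoxin that Txnrd1 reduces, had 1736 to 2237 counts in BAM15 numbers 1 to 3 and 3654 to 6919 in numbers 4 to 6, against 3447 to 4746 with vehicle, and did not pass over all libraries (adjusted p = 0.673). Within library numbers 1 to 3 it fell (log2 fold change −0.93, adjusted p = 4.71e-06), and within numbers 4 to 6 it had 0.28 (adjusted p = 0.394). In the NADPH and pentose phosphate list, 1 of 9 genes was higher and 1 lower, 11.1% each way and under the shares of all tested genes. Pgd, the next NADPH-producing enzyme after G6pdx, rose by 0.30 on the log2 scale (adjusted p = 3.79e-04), which did not pass within numbers 4 to 6 (adjusted p = 0.0494). Idh1, which encodes the cytosolic NADP-dependent isocitrate dehydrogenase, fell from 1677 ± 156 to 752 ± 319 (log2 fold change −1.16, adjusted p = 0.00138, edgeR). Its log2 fold change was −1.70 within numbers 1 to 3 and −0.82, under 2-fold, within numbers 4 to 6.

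Of 10 genes of heme and iron handling, 5 were higher and 2 lower, with a median of 0.47. These shares were 50.0% and 20.0%, beside 22.0% and 20.3% of all tested genes, so the share lower was near that of all. Slc40a1, which encodes the iron exporter ferroportin, rose from 175 ± 15.2 to 598 ± 50.7 (SD, n = 6 each, log2 fold change 1.77, adjusted p = 9.54e-11). The ferritin genes, whose products store iron, rose as well, the light chain Ftl1 by 1.16 on the log2 scale (adjusted p = 6.82e-07) and the heavy chain Fth1 by 0.68 (adjusted p = 5.18e-08, edgeR). Of 14 tested detoxification genes, 5 were higher (35.7%) and 3 lower (21.4%, near the share of all tested genes), with a median of 0.40. The highest of them were Akr1b3, an aldose reductase gene (log2 fold change 1.10, adjusted p = 0.00136), Esd, which encodes S-formylglutathione hydrolase (0.95, adjusted p = 2.98e-07), and Nqo2, which encodes the quinone reductase related to Nqo1 (0.95, adjusted p = 1.10e-08, edgeR). Akr1b3 did not pass within library numbers 1 to 3 (adjusted p = 0.0110). Of the 4 tested conjugate export pumps, 3 were higher (75.0%) and 1 lower (25.0%). Abcc4 rose from 56.0 ± 10.2 to 410.2 ± 32.7 (log2 fold change 2.87, adjusted p = 2.03e-11) and Abcc1 by 0.49 (adjusted p = 0.00344), whereas Abcg2 fell by 0.61 on the log2 scale (adjusted p = 1.21e-06, edgeR). Abcc1 did not pass within library numbers 1 to 3 (adjusted p = 0.0220) or with libraries scaled by size alone (adjusted p = 0.0167).

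The genes whose levels over the 12 libraries were most like those of each member were found by the mean absolute difference of log2 CPM centred on the vehicle mean. Among the 8 genes themselves, Nfe2l2 and Txnrd1 were the closest pair, 0.07 apart. Hmox1 was nearest to Atf4 (0.08 apart, log2 fold change 2.10) and Mndal (0.11), and Srxn1 to Shmt2 (0.07) and Plin2 (0.07). Nqo1 was nearest to Slc22a23 (0.10) and Taf1d (0.11). Nfe2l2 was nearest to Senp6 (0.05) and Klf6 (0.05), Keap1 to Erp29 and Chrng (0.04 each), Txnrd1 to Arhgap5 and Pum3 (0.04 each), Osgin1 to Cr1l (0.04) and Sh3bp5 (0.05), and G6pdx to Trim27 and Kansl3 (0.05 each). These distances are descriptions over the same libraries as the tests. By this measure genes with a like fold change lie close to each other, and shared regulation was not tested.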

How the data were processed

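The authors prepared 3′ QuantSeq libraries and aligned and counted forward reads with BlueBee software. The counts as deposited are whole reads per Ensembl gene without normalization. The submitters' processing notes name GRCm38 (mm10) and DESeq2 1.22.2, while the aligner, annotation and counting strand are not given in the sources used here. The authors also deposited normalized signal, in which each library's counts are scaled by a single factor, and this served for gene symbols and 1 alternative. The tables hold 11 columns outside this experiment, which were not used. Columns were matched to samples by the labels.

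The members and lists were chosen with earlier results of these data known. Counts were analysed in R 4.3.3 with edgeR 4.0.16. filterByExpr left 12730 genes, TMM factors were 0.932 to 1.04, and a robust quasi-likelihood model with condition as its only term was fitted, with Benjamini-Hochberg adjustment over all tested genes. Normalized counts are counts divided by the TMM-scaled library size relative to its mean. Standard errors are the log2 fold change divided by the square root of F, and intervals cover 95%. Total counts were 13983725 to 18866728, and intervals from counts cover counting error only. No pair of libraries within a group was alike enough to be a single library deposited again (chi-square per gene 4.98 or more). Alternatives were DESeq2 1.42.0, limma-voom and limma 3.58.1 on log2 of the authors' signal plus 1, other scalings and filters, blocks, library numbers 1 to 3 or 4 to 6 alone, and each library left out. The direct test of numbers 4 to 6 against 1 to 3 and its alternatives were chosen after seeing the data. Tests were checked on simulated data. Besides the 8 genes, those named are up to 3 per list with the largest change past an adjusted p-value of 0.01, 15 genes named in every case, and the 2 nearest profiles of each member. The motif TGANTCAGC was added after the others had been searched. Positions are from GENCODE M21 on GRCm38, and figures were drawn with matplotlib 3.10.9.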

Additional observations from a re-analysis of the deposited data

Results flagged for a closer look

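For each of 37 named genes and each condition, the gap between the lowest or highest library and its nearest neighbour was divided by the range of the 6 libraries. This ratio passed Dixon's limit in 4 of 74 sets, where chance gives about 3.7. The vehicle libraries of G6pdx gave 0.629, with library 3 at 288 normalized counts above the others at 228 to 250.4. Those of Txnrd3 gave 0.663, with library 2 at 462, and those of Ftl1 gave 0.652, with library 6 at 3894. The BAM15 libraries of Nqo2 gave 0.652, with library 4 the lowest at 691. The BAM15 effect differed between library numbers 4 to 6 and 1 to 3 in 3 named genes, by edgeR's interaction test with Benjamini-Hochberg adjustment. The log2 fold change was higher in numbers 4 to 6 by 0.90 for Idh1 (adjusted p = 0.0442), by 0.43 for Ftl1 (adjusted p = 0.0488) and by 1.56 for Gsr (adjusted p = 0.0444). Idh1 fell in both sets, less in numbers 4 to 6 (−0.82) than in numbers 1 to 3 (−1.70). What set these libraries apart was not tested.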

How the results depend on the processing

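Of the 24 alternatives run for each of the 8 genes, 186 of 192 values kept direction and side of the thresholds, and none reversed. The exceptions were Nqo1 in library numbers 1 to 3 and Osgin1 in 5 alternatives, all under 2-fold with the p-value still past. The number of members past the thresholds was 3 or 4 throughout, and that past the adjusted p-value alone was 7, or 8 with libraries scaled by size alone, where Keap1 passed. The number of list genes past the adjusted p-value was 38 to 51, against 44. The number of members whose effect differed between library numbers was 0 to 1 when each library was left out, the 1 being Txnrd1 without BAM15 library 4. Library numbers 1 to 6 occur in both conditions, but the correlation of deviations of same-numbered libraries was −0.08 to 0.31, and 2 of 6 correlated best with their own number, so they were not treated as pairs. With the replicate block, 4 members passed the thresholds, 7 the adjusted p-value, and 47 list genes. The sign of Gsr was negative with limma-voom (−0.13), the replicate block (−0.057), the block for numbers 1 to 3 and 4 to 6 (−0.028), numbers 1 to 3 alone (−0.91), limma on the authors' signal (−0.17), and without BAM15 library 5 (−0.20) or 6 (−0.015), and that of Txn1 was positive in numbers 4 to 6 alone (0.28). The cause was not tested. At this depth, list genes with few counts such as Gsta3 have wide intervals.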
